A study of Mus musculus with 12 samples.

Results

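The genes described here are 35 genes of the endoplasmic reticulum (ER), the compartment in which secreted and membrane proteins are folded. They were taken by gene name, to cover ER chaperones, ER-associated degradation, translocation and the branches of the unfolded protein response, and all 35 were among the 30130 genes in the table. All 35 passed the filter on low values that left 21415 genes for testing. The study sequenced RNA of the whole proximal thoracic aorta from male mice of a strain given in the labels as C56BL/6J. There were 7 libraries of chronic proximal thoracic aortic aneurysm (cPTAA, numbered 2, 3, 4, 6, 7, 9 and 12) and 5 of sham-operated aorta (1, 5, 8, 10 and 11). The aneurysm mice had elastase, a protease that degrades elastic fibres, applied around the aorta, and also received BAPN, an inhibitor of lysyl oxidases. The sham mice had sham surgery and normal water, so that elastase and BAPN can be compared with sham only as 1 condition. Age, dose, time after surgery and any pooling of animals are not given in the sources used here.

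Proteins that enter the ER through the Sec61 channel are folded by chaperones such as BiP (encoded by Hspa5), by lectins that hold glycoproteins, and by disulfide isomerases. Misfolded proteins are pushed back to the cytosol and degraded, a route called ER-associated degradation. When folding falls behind, the membrane sensors IRE1 (Ern1), PERK (Eif2ak3) and ATF6 start the unfolded protein response. IRE1 splices Xbp1 mRNA, PERK raises translation of Atf4, and ATF6 is cleaved to an active factor, none of which is seen in a gene-level read count. XBP1 and ATF6 induce chaperone and degradation genes, and ATF4 induces Ddit3 (CHOP), Trib3, Chac1 and Asns. Smooth muscle cells and fibroblasts of the aorta secrete much collagen and elastin, and plasma cells secrete antibody, so these cell types carry a large folding load.

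The sequences through which these pathways act on promoters were looked up first. RefSeq promoter windows (GRCm38.p6, 250 bases before to 50 after each gene's start) matched 30 of the 35 genes, and both strands were searched. The ER stress response element, read as CCAAT and CCACG with 9 free bases between them, is bound by ATF6 together with NF-Y. It was found in 9 of the 30 genes (30.0%) and in 0.137% of all 27025 genes with a window. The sites are shown because they set the chaperone genes beside the less abundant genes that share the letters. Each is written along the strand that reads CCAAT first, with the fixed letters in capitals and 15 bases on each side.
Hspa5 (chr2:34772010-34772058, gene on the + strand): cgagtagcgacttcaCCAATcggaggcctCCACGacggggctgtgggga
Hsp90b1, upstream site (chr10:86705623-86705671, gene on the - strand): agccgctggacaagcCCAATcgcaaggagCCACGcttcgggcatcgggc
Hsp90b1, downstream site (chr10:86705518-86705566, gene on the - strand): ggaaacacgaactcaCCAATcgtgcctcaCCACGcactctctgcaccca
Calr (chr8:84847060-84847108, gene on the - strand): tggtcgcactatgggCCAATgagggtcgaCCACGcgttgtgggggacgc
Canx (chr11:50325785-50325833, gene on the - strand): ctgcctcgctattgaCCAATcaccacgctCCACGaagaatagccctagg
Dnajc3 (chr14:118937812-118937860, gene on the + strand): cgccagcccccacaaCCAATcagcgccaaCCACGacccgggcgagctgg
Creld2 (chr15:88819505-88819553, gene on the + strand): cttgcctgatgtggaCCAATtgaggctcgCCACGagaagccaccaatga
Pdia6 (chr12:17266476-17266524, gene on the + strand): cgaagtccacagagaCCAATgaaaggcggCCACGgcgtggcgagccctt
Derl3 (chr10:75893227-75893275, gene on the + strand): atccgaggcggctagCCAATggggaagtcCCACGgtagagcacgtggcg
Syvn1 (chr19:6046517-6046565, gene on the + strand): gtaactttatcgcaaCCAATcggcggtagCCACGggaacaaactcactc

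The elements began between 44 bases (Syvn1) and 212 bases (Hsp90b1, upstream site) before the start. A shorter form, ATTGG and CCACG with 1 free base between them, was found in Dnajb11 and Herpud1, which is 2 of 30 genes (6.67%) against 0.0444% of all genes. The XBP1 site TGACGTGG was found in Sec24d (1 of 30, 3.33%, against 0.714% of all). The letters TGATGNAA, of the site at which ATF4 pairs with C/EBP factors, were found in 4 of 30 (13.3%, against 4.51% of all). They are shown for the targets of ATF4, with 11 bases on each side and the fixed letters in capitals.
Chac1 (chr2:119351038-119351067, gene on the + strand): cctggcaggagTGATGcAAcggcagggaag
Trib3 (chr2:152344028-152344057, gene on the - strand): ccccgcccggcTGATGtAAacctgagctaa
Asns (chr6:7693214-7693243, gene on the - strand): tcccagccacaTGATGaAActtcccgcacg
Herpud1 (chr8:94386306-94386335, gene on the + strand): ggggtgcgggcTGATGcAAcccgccgtggt
In Trib3 the letters lie after the start, beginning at base 15, and in the other 3 genes before it. No 2 of the sites in one promoter overlapped. A match describes letters in this window only, and no match says nothing of the factor.

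Values are normalised read counts, the unit of the deposited table, and folds are log2 of cPTAA over sham ± SE on the log2(value + 1) scale, tested by limma across all genes. The libraries held 14078885 to 17493428 reads. Smooth muscle markers were present in every library, with Myh11 at 14096 to 60173 in cPTAA and 61075 to 87197 in sham. Of the 10 smooth muscle markers 4 fell and 0 rose (edgeR 2 and 0, DESeq2 4 and 1, unadjusted p under 0.05 in 6 and 0), and their summed level was 67369 to 265137 against 212858 to 292126. All 10 macrophage markers rose (summed level 20022 to 41532 against 3678 to 9850), as did 4 of 10 fibroblast markers, with 1 fall (62001 to 120784 against 30415 to 55176). Of 13 brown adipocyte markers 11 fell (2223 to 66482 against 37685 to 117914). Of 12 plasma cell markers 8 rose and 0 fell (13489 to 81173 against 4640 to 8845). The plasma cell sum includes Txndc5, an ER folding enzyme, at 5005 to 8088 in cPTAA and 2910 to 4015 in sham. In cPTAA 2, Jchain (151) and Igkc (934) were below their sham 8 values (268 and 1019), and Ighm (1699) was above (1448). No marker was at 0 in all libraries. In whole tissue, a change in the cells that make up the sample and a change in RNA per cell cannot be told apart.

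Libraries cPTAA 6 and cPTAA 9 stood apart. Genes with a transcript of 5000 bases or more (2679 genes) had a median log2 deviation from the cPTAA median of -0.49 in cPTAA 6 and -0.61 in cPTAA 9. Genes with 1500 bases or fewer (1557 genes) had deviations of 0.54 and 0.67 in these libraries. The other 5 cPTAA libraries lay between 0 and 0.15 for long and between -0.36 and 0 for short transcripts. The same 2 libraries, with cPTAA 7, also held cardiomyocyte transcripts, at a summed level of 17978 (cPTAA 6), 21585 (cPTAA 7) and 114939 (cPTAA 9). The other 9 libraries had 1529 to 5280, and 0 of 10 cardiomyocyte markers passed the test between groups in either direction (by edgeR 1 rose and 0 fell, by DESeq2 2 and 1, and unadjusted p was under 0.05 in 1 and 1). Results are therefore given with and without cPTAA 6 and 9.

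**Figure D1:**
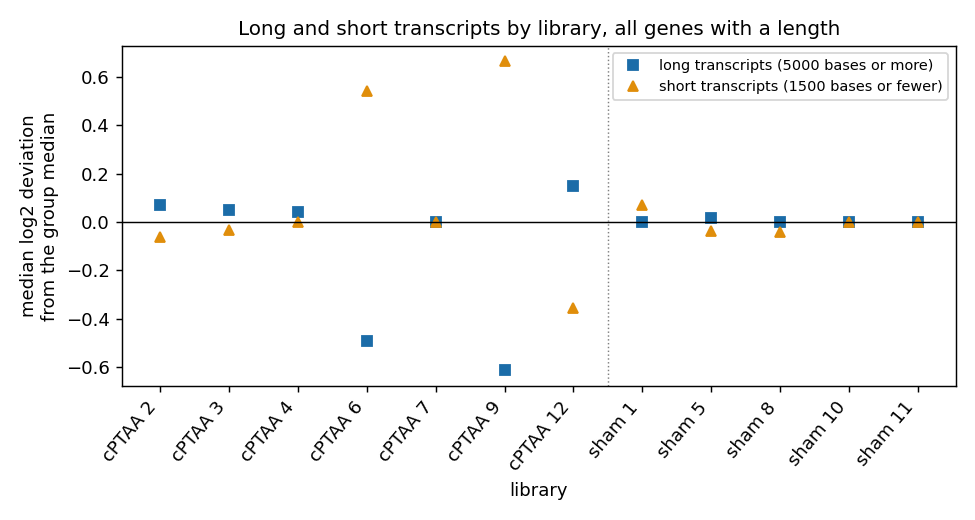
Median log2 deviation of each library from its own group's median (vertical axis) for long and short transcripts, by library (horizontal axis). In cPTAA 6 and 9 long transcripts sit at -0.49 and -0.61 and short ones at 0.54 and 0.67, while the sham libraries lie close to 0.

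Of the 35 ER genes, 12 rose in the aneurysms and 0 fell. Across all tested genes 12.9% rose and 11.1% fell. By unadjusted p under 0.05, 17 rose and 0 fell. By edgeR 13 rose and 0 fell (16.6% and 14.3% of all genes it tested), and by DESeq2 15 and 0 (14.7% and 11.8%). With TMM scaling 13 rose and 0 fell (13% and 10.1% of all genes tested), and with library totals alone 16 and 0 (15.6% and 8.48%). The median log2 fold change of the 35 was 0.39, against -0.05 for all tested genes, and 30 of 35 were above 0. In 6 genes every cPTAA library lay above every sham library (Dnajb11, Sdf2l1, Manf, Atf4, Trib3 and Derl3), beside 8.02% of all tested genes, and in 0 the reverse held, beside 4.95%. The 35 genes held 0.649 ± 0.137% of all normalised reads in cPTAA (SD, n = 7) and 0.450 ± 0.0711% in sham (SD, n = 5). The groups overlapped, with cPTAA 9 (0.405%) and cPTAA 6 (0.520%) below sham 5 (0.563%), the highest sham library. The other cPTAA libraries were at 0.683% to 0.797%.

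**Figure D2:**
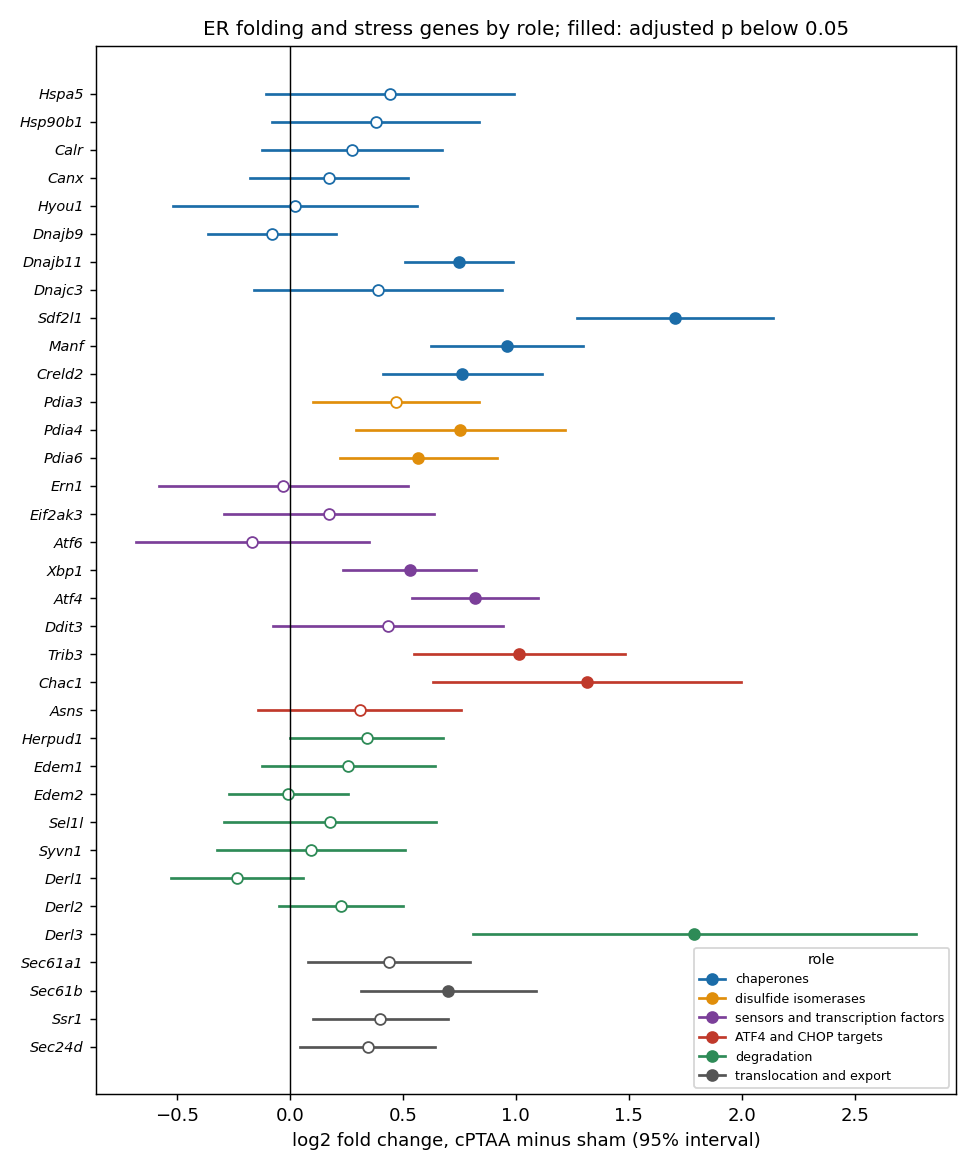
Log2 fold change of cPTAA over sham (horizontal axis) with 95% intervals for each of the 35 genes, coloured by role; filled points have an adjusted p below 0.05. The 12 filled points all lie to the right of 0, and Derl3 (1.79) and Sdf2l1 (1.71) lie farthest out.

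Among the 11 chaperones and co-chaperones 4 rose, Sdf2l1, Dnajb11, Manf and Creld2. Sdf2l1, which works with the BiP co-chaperone encoded by Dnajb11, ranged from 528 to 874 in cPTAA (median 612). In sham it was at 161, 344, 190, 135 and 196 (libraries 1, 5, 8, 10 and 11). Every cPTAA library was above the highest sham library, sham 5, and the log2 fold change was 1.71 ± 0.20 (adjusted p = 3.79e-05). Dnajb11 itself was at 1581 ± 158 against 939 ± 94.8, again with no overlap (0.75 ± 0.11 on the log2 scale, adjusted p = 0.000218). Manf, a small secreted ER protein that binds BiP, was at 2200.2 ± 465 against 1115 ± 167 (0.96 ± 0.16 on the log2 scale, adjusted p = 0.000456). Creld2, a disulfide-handling ER protein, was at 921 ± 172 against 544 ± 125 (0.76 ± 0.17 on the log2 scale, adjusted p = 0.00354), and its lowest cPTAA value, 705, was below the 745 of sham 5.

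The other chaperones and co-chaperones, abundant ones such as Hspa5 and less abundant ones such as Dnajb9, did not pass with all libraries in. Hspa5 ranged from 6194 to 16881 in cPTAA (median 14240), and was at 9252, 11956, 7605, 7631 and 6918 in sham. The lowest were cPTAA 6 (7557), which was below 4 of 5 sham libraries, and cPTAA 9 (6194), which was below all 5, and the other 5 lay between 11780 and 16881. Its log2 fold change was 0.44 ± 0.26 (95% interval -0.11 to 0.99, adjusted p = 0.235). Hsp90b1 (GRP94, the ER form of HSP90) was at 8035 ± 2166 against 6038 ± 1228 (0.38 ± 0.21 on the log2 scale, adjusted p = 0.22). The lectin chaperones Calr (calreticulin) and Canx (calnexin) had log2 fold changes of 0.27 (interval -0.12 to 0.67) and 0.17 (interval -0.18 to 0.52). Dnajc3, a BiP co-chaperone that also restrains PERK, was at 4353 ± 1482 against 3121 ± 357 (log2 fold change 0.39 ± 0.26). Hyou1, which exchanges nucleotide on BiP, and Dnajb9, a BiP co-chaperone that restrains IRE1, had values of 0.02 (interval -0.52 to 0.56) and -0.08 (interval -0.36 to 0.21).

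**Figure D3:**
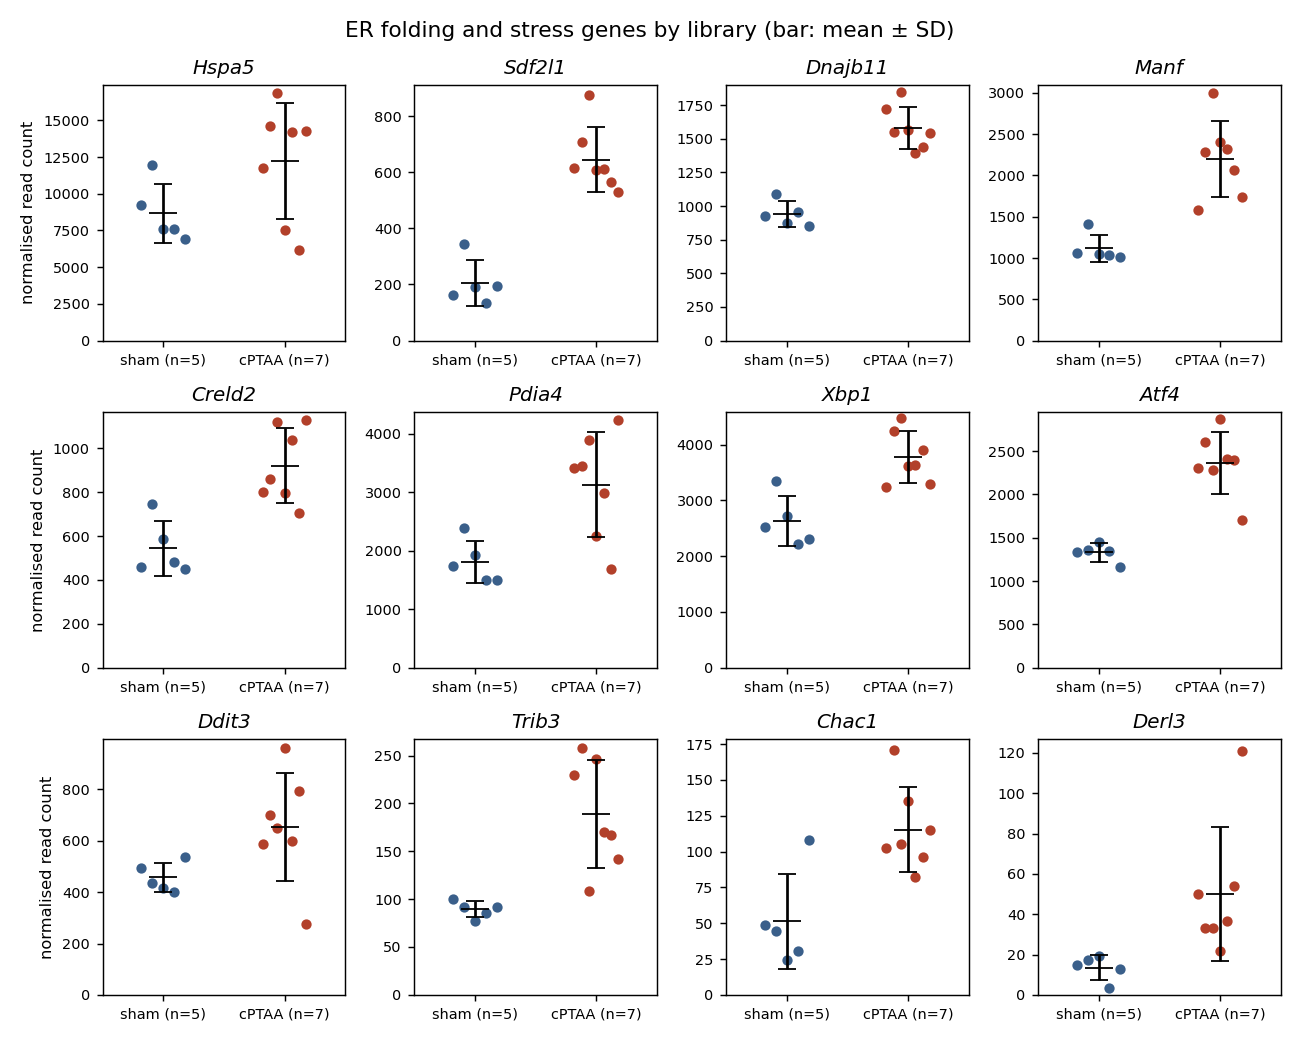
Normalised read counts (vertical axes, starting at 0) of 12 genes in each sham and cPTAA library, with mean and SD as black bars. Sdf2l1, Dnajb11, Manf, Atf4, Trib3 and Derl3 show no overlap, while Hspa5 has a pair of low cPTAA libraries at 6194 and 7557.

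Of the 3 disulfide isomerases 2 rose. Pdia4 (ERp72) was at 3132 ± 897 against 1808 ± 367 (0.76 ± 0.22 on the log2 scale, adjusted p = 0.0194), and Pdia6 (P5) at 4980.0 ± 845 against 3361 ± 686 (0.57 ± 0.16, adjusted p = 0.0198). Pdia3 (ERp57), which folds glycoproteins with calreticulin and calnexin, was at 9220 ± 1562 against 6638 ± 1136 (0.47 ± 0.17, adjusted p = 0.0614, and 0.0238 by DESeq2). Without sham 10 or sham 11, Pdia4 and Pdia6 no longer passed (adjusted p up to 0.0573 and 0.0629).

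Of the sensors none rose, while 2 of 3 transcription factors did. Atf4, which drives the integrated stress response, ranged from 1701 to 2864 in cPTAA (median 2394). In sham it was at 1332, 1360, 1449, 1347 and 1162. The groups did not overlap, and the log2 fold change was 0.82 ± 0.13 (adjusted p = 0.000369). Xbp1, the splicing target of IRE1, ranged from 3244 to 4470 in cPTAA (median 3644) and was at 2529, 3351, 2729, 2222 and 2301 in sham. The sham 5 value lay above the 2 lowest aneurysm libraries, cPTAA 2 and 12, and the log2 fold change was 0.53 ± 0.14 (adjusted p = 0.0109). Spliced and unspliced Xbp1 were counted as 1 gene. Ddit3, the factor CHOP, ranged from 276 to 961 in cPTAA (median 649), against 496, 437, 418, 403 and 539 in sham. Its lowest value, in cPTAA 12, was below every sham library, and the other 6 were above all of them. With all libraries its log2 fold change was 0.44 ± 0.24 (adjusted p = 0.205), and without cPTAA 12 it was 0.63 (adjusted p = 0.00683). Without cPTAA 6 and 9, its 2 highest libraries, it was 0.24 (adjusted p = 0.471). The sensor genes Ern1, Eif2ak3 and Atf6 had log2 fold changes of -0.03 (interval -0.58 to 0.52), 0.17 (interval -0.29 to 0.64) and -0.17 (interval -0.68 to 0.35). For these 3 genes the test found 0 of either direction, also at an unadjusted p under 0.05 and by edgeR and DESeq2.

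Downstream of ATF4, 2 of 3 genes rose. Trib3, a pseudokinase that is induced by ATF4 and CHOP, ranged from 108 to 258 in cPTAA (median 170). In sham it was at 100.2, 91.6, 77.4, 85.7 and 91.9. Sham libraries lay close together, and the lowest aneurysm library, cPTAA 4, was just above them (1.02 ± 0.22 on the log2 scale, adjusted p = 0.00338). Chac1, which breaks down glutathione, ranged from 82.1 to 171 in cPTAA (median 105), and was at 48.5, 44.8, 24.4, 30.4 and 108 in sham. The sham 11 value lay within the aneurysm range and the other 4 sham values below it (1.31 ± 0.32, adjusted p = 0.00751). Asns, asparagine synthetase, was at 728 ± 245 against 567 ± 91.9 (0.31 ± 0.21, adjusted p = 0.317).

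Of the 8 degradation genes 1 rose (12.5%, near the 12.9% of all tested genes that rose). This was Derl3, a member of the derlin family that is abundant in secretory cells. It ranged from 21.7 to 121 in cPTAA (median 36.7) and was at 14.8, 17.5, 19.4, 3.26 and 12.8 in sham. No values overlapped, though all were low, and cPTAA 12 stood far above the rest (1.79 ± 0.46 on the log2 scale, adjusted p = 0.0106). The plasma cell gene Jchain was also highest in cPTAA 12, at 4477, with 151 to 1587 in the other aneurysm libraries and 60.8 to 268 in sham. Without cPTAA 12 the adjusted p of Derl3 was 0.0158. The other derlin genes, Derl1 and Derl2, had log2 fold changes of -0.23 (interval -0.52 to 0.06) and 0.23 (interval -0.05 to 0.50). Herpud1, an adaptor of the degradation complex, was at 2195 ± 515 against 1694 ± 58.2 (0.34 ± 0.16, adjusted p = 0.136). Edem1 and Edem2, which mark glycoproteins for disposal, and the ligase pair Sel1l and Syvn1 (HRD1) lay between -0.01 and 0.26, with adjusted p from 0.327 to 0.979.

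Of the 4 translocation and export genes 1 rose. Sec61b, a small subunit of the Sec61 channel, was at 875 ± 236 against 522 ± 48.5 (0.70 ± 0.18 on the log2 scale, adjusted p = 0.0106). The channel subunit Sec61a1 was at 2691 ± 576 against 1952 ± 240.2 (0.44 ± 0.17, adjusted p = 0.0715), and the translocon-associated Ssr1 at 3271 ± 515 against 2457 ± 239 (0.40 ± 0.14, adjusted p = 0.0505). Sec24d, which packs cargo such as procollagen into COPII vesicles, was at 2575 ± 414 against 2011 ± 202 (0.34 ± 0.14, adjusted p = 0.0886). Ssr1 passed by edgeR and by DESeq2 (adjusted p = 0.0442 and 0.0229), and Sec61a1 by DESeq2 (adjusted p = 0.0417).

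Many of these results turned on cPTAA 6 and 9. In 17 of the 35 genes, with transcripts of 1366 to 9333 bases (median 4281), these were the 2 lowest aneurysm libraries, beside 23.6% of 11855 genes with a length and a mean of at least 50. In 4 genes (Ddit3, Herpud1, Edem2 and Sec61b), with transcripts of 564 to 2290 bases, they were the 2 highest, beside 21.7%. Without these libraries 24 of 35 ER genes rose and 0 fell, where 16.4% of all tested genes rose and 14.7% fell. The 24 held all 12 from before, and the 12 added were Hspa5, Hsp90b1, Canx, Dnajc3, Pdia3, Ern1, Eif2ak3, Edem1, Sel1l, Sec61a1, Ssr1 and Sec24d. All of the 12 added except Sec24d were among the 17 genes above. Leaving out the 2 lowest aneurysm libraries of a gene must raise its fold, so that direction was fixed in advance. By role, 8 of 11 chaperones, 3 of 3 isomerases, 4 of 6 sensors and factors, 2 of 3 targets of ATF4 and CHOP, 3 of 8 degradation genes and 4 of 4 translocation and export genes then rose. Hspa5 had a log2 fold change of 0.75 (adjusted p = 0.0036) and Hsp90b1 one of 0.60 (adjusted p = 0.00754). Ern1 turned from -0.03 to 0.31 (adjusted p = 0.0356). Sdf2l1 was at 1.75 against 1.71 with all libraries, Dnajb11 at 0.78 against 0.75, and Xbp1 at 0.53 in both. The 4 genes for which these libraries were the 2 highest had lower values without them, which leaving out the 2 highest libraries must give. Sec61b was at 0.52 against 0.70 with all libraries, Ddit3 at 0.24 against 0.44, Herpud1 at 0.18 against 0.34 and Edem2 at -0.08 against -0.01. Leaving out cPTAA 9 alone gave 19 rises, and leaving out cPTAA 6 alone gave 12, the same genes as with all libraries. Leaving out the 3 libraries with cardiomyocyte transcripts (cPTAA 6, 7 and 9) and sham 8 gave 22 rises and 0 falls, beside 17.6% and 15.6% of all genes tested. Sham 8 was not set apart by its summed cardiomyocyte level (4989), which was below that of sham 5 (5280), a library that was kept. The part of transcript length or of heart tissue in these values was not tested. Of the 9 genes with the ER stress response element, 3 rose with all libraries and 7 without cPTAA 6 and 9, and of the 15 genes with none of the 4 motifs 5 and 11 rose.

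**Figure D4:**
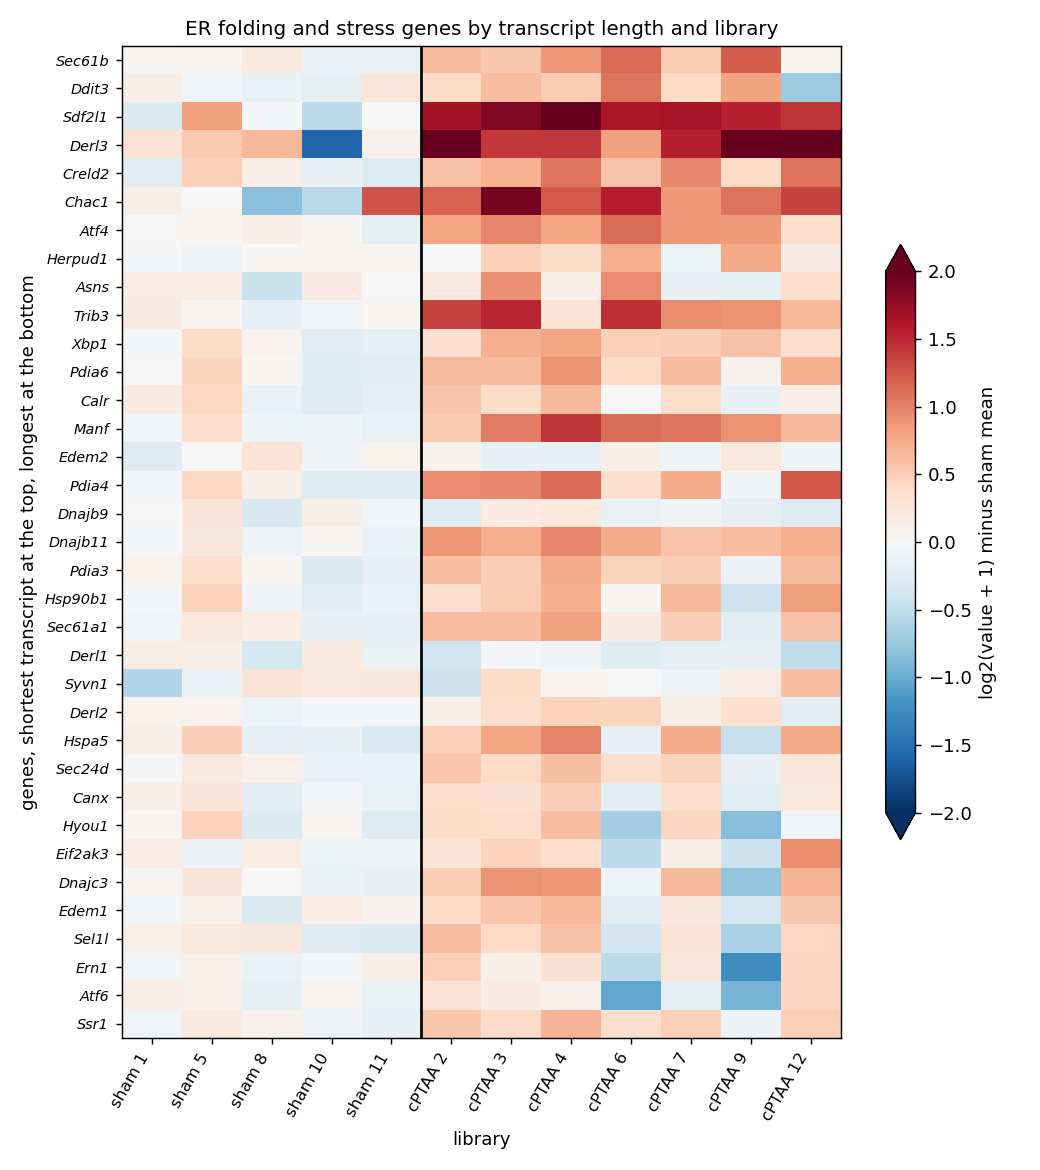
Log2(value + 1) minus the sham mean (colour) for the 35 genes, from the shortest transcript at the top to the longest at the bottom, in each library. Columns cPTAA 6 and 9 are red at the top and pale or blue at the bottom, while Sdf2l1 is red in all 7 cPTAA columns.

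**Figure D5:**
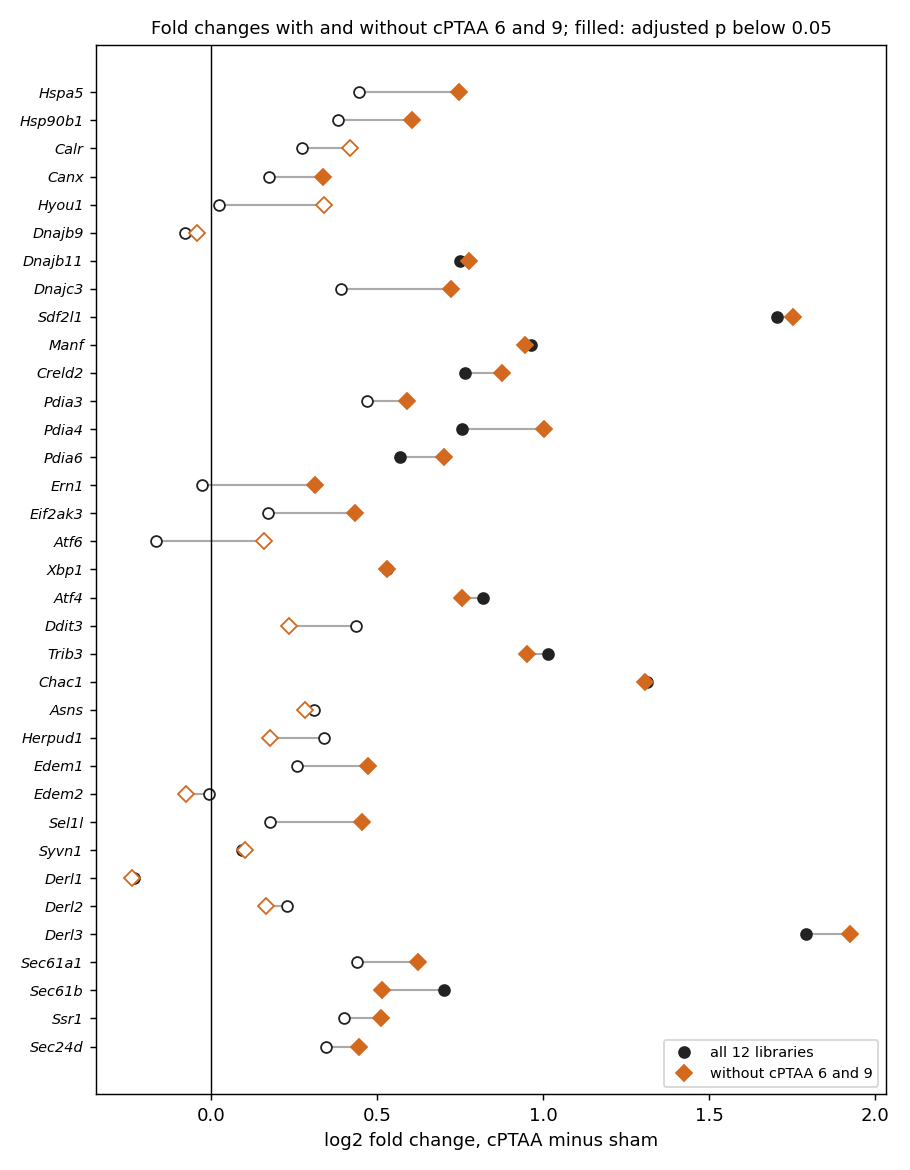
Log2 fold change (horizontal axis) of the 35 genes with all 12 libraries (black circles) and without cPTAA 6 and 9 (orange diamonds); filled symbols have an adjusted p below 0.05. Filled symbols go from 12 to 24, and Hspa5 moves from 0.44 to 0.75.

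Brown adipocyte markers also moved with the groups. The mean log2 value of the 13 markers was 7.88 ± 1.06 in cPTAA (SD, n = 7) and 10.3 ± 0.628 in sham (SD, n = 5). This score nearly separated the groups, at 5.92 (cPTAA 12) to 9.328 (cPTAA 9) against 9.324 (sham 8) to 10.9 (sham 10). Library cPTAA 9 also held the most cardiomyocyte transcripts (summed level 114939). Among the cPTAA libraries the marker Fabp3 was highest in cPTAA 9, 6 and 7 (19079, 2730 and 2578), while the marker Dio2 was not (684, 704 and 1074). Among cPTAA libraries, 12 and 9 also had the lowest and highest deviations of short transcripts (-0.36 and 0.67). With that score as a covariate 5 of the 35 rose (Sdf2l1, Manf, Atf4, Sec61b and Ddit3) and 0 fell, where 2.31% of all tested genes rose and 1.05% fell. The log2 fold changes of Sdf2l1, Manf, Atf4 and Sec61b were then 1.63, 1.15, 1.08 and 1.16, and that of Ddit3 was 1.30 (adjusted p = 0.0398). The other 8 of the 12 no longer passed. Of these, Trib3 (1.26, adjusted p = 0.0752), Chac1 (1.43, 0.144), Xbp1 (0.60, 0.139) and Dnajb11 (0.66, 0.0686) had log2 fold changes close to those without the covariate. Those of Creld2, Pdia4, Pdia6 and Derl3 were lower, at 0.34, 0.0026, 0.20 and 0.55, and that of Hspa5 was -0.03. The median SE of the 35 genes was 0.295 in that fit and 0.18 without the covariate. The parts of transcript length and of heart tissue in that fit were not tested. Derl3 passed in every other alternative (adjusted p at most 0.0283), and so did Creld2 (at most 0.0136).

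Other genes of the same pathways, taken from 6 lists chosen by function, are given beside the background of 12.9% rising and 11.1% falling over all tested genes (16.6% and 14.3% by edgeR, 14.7% and 11.8% by DESeq2, and 16.4% and 14.7% without cPTAA 6 and 9). The difference between lists was not tested. Of 26 further folding enzymes 7 rose (26.9%) and 0 fell (11 and 0 at unadjusted p under 0.05, 7 and 0 by edgeR and by DESeq2, 14 and 0 without cPTAA 6 and 9). Their median log2 fold change was 0.28. Erp29, an ER protein of the disulfide isomerase fold, was at 1613 ± 228 against 820.1 ± 20.3 (0.96 ± 0.12 on the log2 scale, adjusted p = 4.02e-05), and Txndc5, a disulfide isomerase, was at 7181 ± 1021 against 3551 ± 463. Txndc5 is also on the plasma cell list. Of 24 translocon, signal peptidase and oligosaccharyltransferase genes 8 rose (33.3%) and 0 fell (15 and 1 at unadjusted p under 0.05, 8 and 1 by edgeR, 10 and 1 by DESeq2, 13 and 1 without cPTAA 6 and 9), with a median of 0.35. They were led by Ostc (0.90 ± 0.13), of the glycosylating enzyme, and Spcs3 (0.99 ± 0.16), of signal peptidase. Of 27 ER to Golgi transport genes 7 rose (25.9%) and 0 fell (12 and 1 at unadjusted p under 0.05, 8 and 0 by edgeR and by DESeq2, 14 and 1 without cPTAA 6 and 9), with a median of 0.26. Kdelr3, a receptor that returns escaped ER chaperones, had 0.98 ± 0.13, and Sec16b, which organises export sites, 1.21 ± 0.17.

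Of 24 further degradation genes 3 rose (12.5%, near the background) and 1 fell (4 and 3 at unadjusted p under 0.05, 4 and 2 by edgeR, 4 and 3 by DESeq2, 5 and 5 without cPTAA 6 and 9). Their median was -0.02. Selenos, of the complex that returns proteins to the cytosol, had a log2 fold change of 0.63, the ubiquitin-conjugating enzyme Ube2g2 0.39 and the lectin Os9 0.47. The ubiquitin ligase Marchf6 was at -0.56. Of 34 further genes of ATF4 and the integrated stress response 13 rose (38.2%) and 3 fell, with a median of 0.28 (14 and 5 at unadjusted p under 0.05, 13 and 4 by edgeR, by DESeq2 and without cPTAA 6 and 9). Gdf15, a stress cytokine, was at 71.4 ± 12.2 against 14.8 ± 4.48 (2.24 ± 0.26 on the log2 scale, adjusted p = 3.38e-05). Psat1, of serine synthesis, was at 479 ± 92.9 against 160 ± 45.1 (1.59 ± 0.19, adjusted p = 4.27e-05). The falls were Vldlr, a lipoprotein receptor (-1.57 ± 0.17), Ppp1r15b, a subunit that reverses PERK's effect (-0.52 ± 0.14), and Slc1a5, a glutamine carrier (-0.59 ± 0.17). Of 19 tested stress sensors and CREB3 family genes 5 rose (26.3%) and 1 fell, with a median of 0.23 (7 and 2 at unadjusted p under 0.05, 6 and 1 by edgeR and by DESeq2, 7 and 2 without cPTAA 6 and 9). Creb3l3 went from 2.26 ± 1.32 in sham to 22.4 ± 10.6 in cPTAA and Creb3l1, a factor of collagen-secreting cells, from 166 ± 30.6 to 296 ± 62.3. The fall was Itpr1, a calcium channel of the ER (-1.05 ± 0.25).

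Per kilobase of transcript, the levels of the 35 genes in sham ran from 4109 normalised reads for Calr, 2396 for Pdia3, 2362 for Hspa5 and 2137 for Hsp90b1 down to 31.3 for Chac1 and 10.3 for Derl3. In cPTAA the same 4 genes led, with 4981 for Calr and 3330 for Hspa5. The genes that rose most, Derl3, Sdf2l1, Chac1 and Trib3, ranked 35, 28, 34 and 33 of 35 in sham. The sham level enters both the rank and the fold, and a link between them was not tested.

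Over the 7 cPTAA libraries 4 relations were computed on the log2 scale, with two-sided exact permutation tests. Hspa5 and Hsp90b1 gave Pearson's r = 0.945 (exact p = 0.00218, adjusted 0.00872) and Spearman's rho = 0.821 (exact p = 0.0341, adjusted 0.136). Without cPTAA 6 and 9, the libraries farthest from the median, r was 0.677 over 5 libraries (exact p = 0.167) and the test was no longer passed. Leaving out single libraries gave r of 0.882 to 0.968. Hspa5 with Col1a1, a main secreted collagen, gave r = 0.333 and rho = 0.571 (exact p = 0.488 and 0.2, adjusted 0.488 and 0.396), and r = 0.209 without the 2 farthest. Derl3 with Jchain gave r = 0.471 and rho = 0.393 (exact p = 0.284 and 0.396, adjusted 0.379 and 0.396), and r = -0.494 without cPTAA 12 and 6. Trib3 with Chac1 gave r = 0.53 and rho = 0.429 (exact p = 0.221 and 0.354, adjusted 0.379 and 0.396), and r = 0.418 without the 2 farthest.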

How the data were processed

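The deposited table holds a normalised signal per gene and library. The tools named in the submitters' processing notes are StringTie, featureCounts 1.5.0-p3 and HISAT2 2.0.5, and the build is GRCm39; the scaling, strand setting and filters are not given in the sources used here, so overlapping antisense genes cannot be told apart. Checked on the values, 100% of the authors' signal values were whole reads times 1 factor per library (within 0.02 reads, largest deviation 0.000311). Totals were 14078885 to 17493428 reads, and no 2 libraries of a group were alike within counting noise (lowest chi-square per degree of freedom 20.5). No label ties a library to its own animal. The p-values therefore cover the spread among these libraries, which may be technical.

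Values were tested as log2(value + 1) in limma 3.58.1 under R 4.3.3, its trend option on, after removing genes that did not reach 1 in 5 or more libraries. P-values were adjusted over all 21415 genes (Benjamini-Hochberg, threshold 0.05). This scale understates changes of low genes. Alternatives were edgeR 4.0.16 and DESeq2 1.42.0 on the recovered reads, other scalings, a pseudocount of 0.1, no filter, a brown adipocyte covariate and left-out libraries; leaving out cPTAA 6 and 9 was chosen after seeing the data. The 35 genes and the lists were chosen with earlier results of these data known, so no test was made over a list. Per-library values were set to be given for genes past the threshold with a log2 fold change of at least 1 and for Hspa5, Xbp1, Atf4 and Ddit3; from each list the 2 smallest p in each direction were to be named, and all where a direction held 3 or fewer. Transcript lengths are the longest coding transcript of GENCODE M21, which is of another build (GRCm38), and the sequences are from RefSeq. The calculation was tested on simulated data.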

Additional observations from a re-analysis of the deposited data

Results flagged for a closer look

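In 5 of 70 groups of values (35 genes in 2 groups of libraries) a single library lay far from the others by Dixon's criterion, which chance meets in about 1 of 20 groups. Derl3 was at 121 in cPTAA 12, with 53.9 as the next value. Chac1 was at 108 in sham 11, with 48.5 next. Pdia3 was at 6036 in cPTAA 9, with 8980.2 next. Sham 5 was the highest of its group for Hsp90b1 (8183, with 5802 next) and for Manf (1411, with 1066 next).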

How the results depend on the processing

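No paired analysis was possible because the groups share no replicate number. Rises among all tested genes were 2213 to 3156, and falls 1675 to 2818, when single libraries were left out, and 494 and 224 with the brown adipocyte covariate. The ER genes that rose numbered 10 to 19 without single libraries (19 without cPTAA 9, 10 without sham 10 or sham 11), 5 with the covariate, 22 without cPTAA 6, 7 and 9 and sham 8, and 24 without cPTAA 6 and 9; 0 fell in any setting. Their median log2 fold change was 0.11 with the covariate and 0.34 to 0.56 elsewhere. Scaling to library totals alone moved the median of all tested genes from -0.05 to 0.06, and 64.7% of calls then rose, against 53.7%. The 6 pathway lists held 26, 24, 27, 24, 34 and 19 tested genes, and shares of all tested genes are given in brackets. List genes that rose numbered 43 (12.9%), with 7 under the covariate (2.31%), 66 without cPTAA 6 and 9 (16.4%) and 33 to 56 without single libraries. Those that fell numbered 5 (11.1%), with 8 by edgeR (14.3%), 9 by DESeq2 (11.8%), 3 with library totals (8.48%) and 1 under the covariate (1.05%). Falls numbered 14 without cPTAA 6, 7 and 9 and sham 8 (15.6%), 13 without cPTAA 6 and 9 (14.7%), and 3 to 10 without single libraries. Ern1 turned to 0.31 without cPTAA 6 and 9, and Aldh1l2, a mitochondrial folate enzyme, to -0.15 under the covariate. The r of Hspa5 with Hsp90b1 was 0.677 (exact p = 0.167) without its 2 farthest libraries and 0.882 to 0.968 without single ones. For Derl3 with Jchain r was -0.494 without the 2 farthest, and -0.225 to 0.826 without single libraries; for Hspa5 with Col1a1 it was 0.283 to 0.477 and for Trib3 with Chac1 0.275 to 0.637. Of 735 values of single ER genes under the alternatives 682 stayed on their side of the threshold (the sign of a value that did not pass was not counted), 40 passed anew, 12 no longer passed and 1 turned; the cause was not tested. Low counts limit Derl3, with 3.26 normalised reads in sham 10.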
